A study of Mus musculus with 6 samples.

Results

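Neuronal immediate early genes are the set of 10 genes described here: Fos, Fosb, Junb, Egr1, Egr2, Egr4, Arc, Npas4, Nr4a1 and Dusp1. They were selected by name with earlier results of these same data known, so their differences from the control are a description and support nothing by themselves. The gene symbols were matched to the Ensembl identifiers in the deposited tables, and 8 of the 10 had a value, in all 6 libraries, out of 15441 genes with a value in at least 1 library and 11750 with a value in all 6. Junb and Egr4 had none in any library. Both have at most 2 exons in any annotated transcript. Of protein-coding genes whose largest number of exons is 2, 19.6% (376 of 1917) were listed in any library, against 71.0% (13283 of 18703) of those with 3 or more and 2.86% (38 of 1331) of those with 1, and nothing is said here about the level of Junb and Egr4.

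The data come from the ipsilateral cerebral cortex of male C57/BL6J mice, aged 6 to 8 weeks at the operation. Focal ischemia was produced by photothrombosis, in which an injected dye is activated by light through the skull and clots the vessels under the beam, and tissue was taken on days 1, 3, 7, 14 and 28 afterwards. The control was a sham-operated group without illumination, taken on day 7 after the operation. Age at collection therefore rose with the day, and in these libraries age and day after stroke cannot be told apart. No group carried a transgene or a drug treatment according to the sources used here. In each of the 6 groups the RNA of 3 mice was pooled and sequenced as 1 poly(A), strand-specific library with paired-end reads of 150 bases, so no spread between animals can be had and no difference below was tested. The stated average depth was 33.6 M reads, the depth of each library is unknown, and the values are FPKM, that is fragments counted per kilobase of a transcript and per M of mapped fragments.

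Immediate early genes are switched on within minutes of synaptic activity, calcium entry or growth factor signalling, from transcription factors already present in the cell such as CREB and SRF, and their mRNAs decay quickly. Most encode transcription factors in turn. Fos, Fosb and Junb encode subunits of AP-1, Egr1, Egr2 and Egr4 zinc finger factors, Nr4a1 an orphan nuclear receptor and Npas4 a neuron-restricted basic helix-loop-helix factor. Arc encodes a synaptic protein that promotes removal of AMPA receptors, and Dusp1 a phosphatase that switches MAP kinases off. In cortex these mRNAs are used as marks of recent neuronal activity, although Fos, Junb, Egr1, Nr4a1 and Dusp1 are also induced in glia, vessels and leukocytes.

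The 250 bases upstream of the RefSeq start site are shown for 6 of the 8 genes with a value. These genes are read through CREB and SRF sites near their promoters, and a reader can see which matches each window holds. Sites further upstream or with other letters were not sought, so a gene without a match may still have them. Capitals mark matches to the short CRE (TGACG or its reverse complement CGTCA), the full CRE (TGACGTCA, which contains both short sites) and the CArG box bound by SRF. Windows are from RefSeq on GRCm38.p6, 5′ to 3′ on the gene's strand, at chr12:85473640-85473889, plus strand for Fos, chr7:19310046-19310295, minus strand for Fosb, chr19:4989972-4990221, minus strand for Npas4, chr15:101266596-101266845, plus strand for Nr4a1, chr10:67537619-67537868, plus strand for Egr2 and chr17:26508473-26508722, minus strand for Dusp1.
Fos: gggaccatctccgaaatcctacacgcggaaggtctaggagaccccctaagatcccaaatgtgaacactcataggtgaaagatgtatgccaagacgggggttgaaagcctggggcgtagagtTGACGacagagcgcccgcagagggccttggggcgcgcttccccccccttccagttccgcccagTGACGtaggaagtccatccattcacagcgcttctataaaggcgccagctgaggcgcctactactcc
Fosb: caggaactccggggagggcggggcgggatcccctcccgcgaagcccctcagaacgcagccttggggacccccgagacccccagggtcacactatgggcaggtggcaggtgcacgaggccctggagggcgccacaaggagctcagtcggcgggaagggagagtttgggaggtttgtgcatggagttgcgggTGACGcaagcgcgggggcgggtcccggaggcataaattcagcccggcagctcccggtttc
Npas4: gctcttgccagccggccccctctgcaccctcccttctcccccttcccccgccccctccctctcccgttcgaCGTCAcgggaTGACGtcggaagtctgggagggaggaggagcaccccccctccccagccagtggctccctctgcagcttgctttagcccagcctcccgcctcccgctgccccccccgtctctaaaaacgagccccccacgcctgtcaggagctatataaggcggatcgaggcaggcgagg
Nr4a1: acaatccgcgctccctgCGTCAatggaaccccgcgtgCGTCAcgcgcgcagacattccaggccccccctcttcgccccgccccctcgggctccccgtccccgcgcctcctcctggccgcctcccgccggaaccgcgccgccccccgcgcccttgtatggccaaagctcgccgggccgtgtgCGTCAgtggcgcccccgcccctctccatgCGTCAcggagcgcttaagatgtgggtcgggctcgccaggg
Egr2: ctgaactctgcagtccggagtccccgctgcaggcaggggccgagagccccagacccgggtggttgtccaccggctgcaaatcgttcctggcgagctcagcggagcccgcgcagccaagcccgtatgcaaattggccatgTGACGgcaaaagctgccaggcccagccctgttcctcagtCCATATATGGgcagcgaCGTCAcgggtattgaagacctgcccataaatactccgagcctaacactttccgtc
Dusp1: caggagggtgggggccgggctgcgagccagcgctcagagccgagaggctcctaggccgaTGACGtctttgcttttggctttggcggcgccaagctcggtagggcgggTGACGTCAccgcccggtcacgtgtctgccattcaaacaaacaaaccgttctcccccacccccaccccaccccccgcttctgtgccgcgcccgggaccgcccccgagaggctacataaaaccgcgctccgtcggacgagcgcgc

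Egr2 had 5 RefSeq windows, of which the one nearest the leading deposited start is shown, and each of the other 7 genes with a window had 1. A short CRE was present in all 8 windows taken in this way, those of Junb and Egr4 included, and in 10 of all 12 windows of these genes (3 of 5 for Egr2), against 17.7% of 32817 windows of the same length. Egr1 and Arc had no window. The full CRE was present in Dusp1, from 143 to 136 bases before the start, and in 1.55% of all windows. The CArG box was present in Egr2, from 72 to 63 bases before the start, in 4 of its 5 windows and in 1.47% of all windows. Nr4a1 held 4 short sites, Fos, Npas4 and Egr2 a pair each, and Fosb 1. A match describes these letters in this window and shows no binding. For Fos, Nr4a1 and Egr2 the window ended at the leading start in the deposited data, and for Fosb and Dusp1 1 base and 2 bases from it. For Npas4 the deposited start lay 4266 bases away from the RefSeq start.

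Across the 8 genes, sham was the lowest of the 6 libraries for 6 genes (Fos, Fosb, Egr1, Npas4, Nr4a1 and Dusp1), and day 1 was the lowest for Egr2 and Arc. The highest library was day 28 for 5 genes (Egr1, Egr2, Arc, Nr4a1 and Dusp1) and day 1 for 3 (Fos, Fosb and Npas4). Of the 11565 genes that were listed in all 6 libraries and reached 1 FPKM in 1 of them, 18.5% were lowest in sham, 13.9% highest on day 28 and 15.9% highest on day 1. Every one of the 8 genes was above sham on days 3, 7, 14 and 28, where 52.9%, 53.2%, 58.2% and 53.8% of all genes compared and listed in both libraries were, and 6 of 8 were above it on day 1, against 51.5%. Within an ordering, neighbouring libraries closer than 1.5-fold were not treated as separable, a margin set for description only. By that margin the highest library stood apart from the next for Egr2 (day 28) and Fosb (day 1), and not for the other 6 genes. In tissue of mixed cells, fewer cells of a type and less RNA per cell cannot be told apart.

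**Figure D1:**
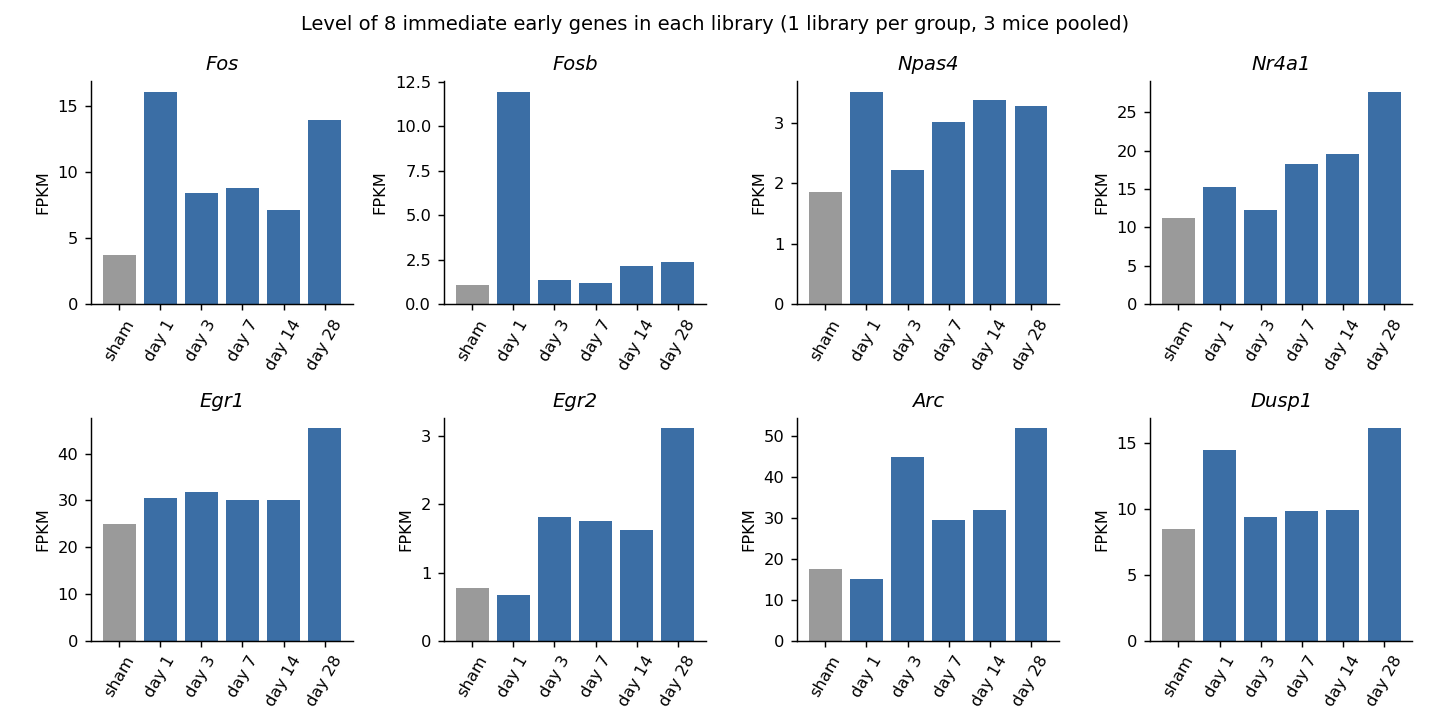
FPKM (vertical axes, each from 0) of the 8 immediate early genes with a value, in sham (grey) and on days 1, 3, 7, 14 and 28 after stroke (blue), 1 bar per library of 3 pooled mice. Fosb stands out on day 1 (11.9 FPKM), whereas Egr1, Egr2, Arc, Nr4a1 and Dusp1 have their tallest bar on day 28.

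Among the AP-1 genes, Fos (chromosome 12, 85473890 to 85477273, plus strand, GRCm38, as all coordinates here) had 3.74 FPKM in sham, 16.1 on day 1, 8.44 on day 3, 8.79 on day 7, 7.09 on day 14 and 13.9 on day 28. Its level was thus high in the first and the last post-stroke libraries and intermediate between them. The fold over sham was 4.30 on day 1 (log2 ratio 2.08), and the day 28 level was within 1.5-fold of it (log2 ratio to sham 1.87). From day 1 to day 3 the level was 1.91-fold lower, and from day 14 to day 28 1.96-fold higher.

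Fos had 3 starts and 1 end. The leading start, at the annotated first exon, carried 93.7% of the start FPKM in sham and between 85.1% (day 14) and 89.6% (day 7) after stroke. The other starts lay within the gene, and the larger of them had 0.207 FPKM in sham and 1.45 on day 1. The order of the libraries was the same for the leading start as for the gene, lowest in sham (3.50 FPKM) and highest on day 1 (14.3 FPKM).

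Fosb (chromosome 7, 19302696 to 19310051, minus strand) had 1.05 FPKM in sham, 11.9 on day 1, 1.33 on day 3, 1.20 on day 7, 2.12 on day 14 and 2.37 on day 28. Day 1 stood 5.05-fold above the next highest library, the widest such gap among the 8 genes, and its log2 ratio to sham was 3.39, or 2.66 with a pseudocount of 1 in place of 0.1. By day 3 the level was 8.99-fold lower than on day 1. Sham, day 7 and day 3 were not separable by the margin used here, and neither were day 14 and day 28.

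The Fosb gene also makes a shorter mRNA, ΔFosB, from which a segment of the last coding exon is spliced out. ΔFosB protein lacks the C-terminal part of FosB, is more stable and is known to build up in neurons after repeated stimulation. Both forms could be read from the deposited transcript ends, since they start their last exon at different bases. The segment is chr7:19305007-19305146 of GRCm38 (minus strand, 140 bases, exonic and coding in the long form), shown with 20 bases on each side (chr7:19304987-19305166) from the GENCODE M21 transcript, because it is what separates the 2 forms. Capitals mark its first and last 2 bases, the GT and AG of a spliced intron.
Fosb segment: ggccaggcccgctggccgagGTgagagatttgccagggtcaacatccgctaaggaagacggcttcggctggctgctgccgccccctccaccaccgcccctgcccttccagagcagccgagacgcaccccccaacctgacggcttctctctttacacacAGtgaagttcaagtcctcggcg

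With the segment the Fosb transcript had an open frame of 338 codons. Without it the frame met a TGA stop directly at the junction, after 237 codons, 101 fewer. The 108-base exon upstream (chromosome 7, 19306559 to 19306666) was kept in all 6 libraries.

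The short-form end had 0.0834 FPKM in sham, 5.59 on day 1, 0.152 on day 3, 0.699 on day 7 and 0.599 on day 28, and was not listed on day 14. Its long-form counterpart had 0.965, 6.36, 1.18, 0.500, 2.12 and 1.77 FPKM in sham and on days 1, 3, 7, 14 and 28. On day 1 both forms were at their highest. As a share of both ends, the short form made up 7.96% in sham, 46.8% on day 1, 11.4% on day 3, 58.3% on day 7 and 25.3% on day 28. Outside day 1 each share rests on a short form below 1 FPKM, and without counts no interval can be given for it.

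Npas4 (chromosome 19, 4984355 to 4990316, minus strand) had 1.85 FPKM in sham, 3.52 on day 1, 2.23 on day 3, 3.01 on day 7, 3.37 on day 14 and 3.27 on day 28. The highest library was 1.90-fold above the lowest, and every neighbouring pair in the order was closer than 1.5-fold. None of its log2 ratios to sham reached 1, and the largest was 0.89 on day 1. An exon of 110 bases (chromosome 19, 4987778 to 4987887), whose length is not a multiple of 3, was kept in the listed forms in sham and on days 1 and 3. Forms skipping it had 0.596 FPKM on day 7, 1.55 on day 14 and 0.463 on day 28, which was 19.8% of the kept and skipped forms on day 7 and 14.2% on day 28. On day 14 neither the kept form nor the transcript start was listed, so the value of that library comes from the end alone. The deposited start lay 3921 bases upstream of the annotated start.

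Nr4a1 (chromosome 15, 101254269 to 101274795, plus strand) had 11.3 FPKM in sham, 15.3 on day 1, 12.3 on day 3, 18.3 on day 7, 19.6 on day 14 and 27.7 on day 28. No step between neighbouring libraries in that order reached 1.5-fold, yet the ends of the order were 2.46-fold apart. The log2 ratio to sham was 1.29 on day 28. Of the 8 genes it lay closest to the group's median profile, with a root mean square difference of 0.13 over the 5 log2 ratios.

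The starts of Nr4a1 differed between libraries. The leading start (base 101266846, the RefSeq start shown above) had 5.92 FPKM in sham, 11.8 on day 1, 9.27 on day 3, 14.7 on day 7, 16.4 on day 14 and 27.7 on day 28. Its share of all start FPKM was 56.6% in sham, lay between 75.3% (day 3) and 83.6% (day 14) in the next 4 libraries, and was 100% on day 28. A start further upstream (base 101254063, short first exon) had 2.35 FPKM in sham and from 3.04 to 3.55 on days 1 to 14, and was not listed on day 28. In sham alone the same base also began a form with a long first exon, with 1.54 FPKM. The 2.35 FPKM is therefore not all of the sham level from that base. A start at base 101259638, with 0.648 FPKM, was also listed in sham alone. Thus the sham to day 28 difference was larger for the leading start than for the whole gene. A retained intron, also with 0.648 FPKM, made up 5.76% of the retained and spliced forms in sham and was not listed after stroke. The start at base 101259638 has the same value, so both may belong to 1 form. This share rests on a form below 1 FPKM in 1 library.

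**Figure D2:**
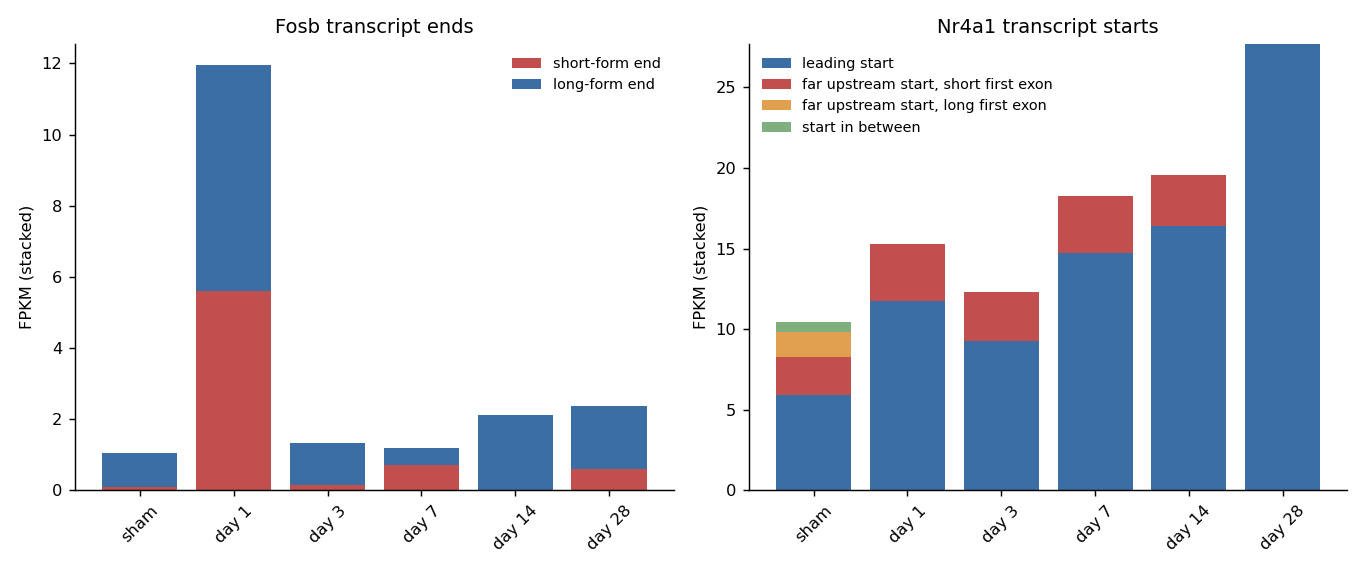
Left, FPKM of the short-form (red) and long-form (blue) transcript ends of Fosb, stacked. Right, FPKM of the transcript starts of Nr4a1, stacked, by library. The short form of Fosb is 46.8% of the ends on day 1 and 7.96% in sham, and the leading Nr4a1 start is 56.6% of the starts in sham and 100% on day 28.

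Among the Egr genes, Egr1 (chromosome 18, 34859823 to 34864984, plus strand) had 24.9 FPKM in sham, 30.4 on day 1, 31.7 on day 3, 30.0 on day 7, 30.1 on day 14 and 45.4 on day 28. The first 4 post-stroke libraries lay within a narrow range, and day 28 was 1.43-fold above the next highest library, day 3, which is within the margin. Its log2 ratio to sham was 0.86 on day 28 and from 0.27 to 0.35 in the other libraries. In sham Egr1 had the highest FPKM of the 8 genes.

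Egr2 (chromosome 10, 67535475 to 67542188, plus strand) had 0.778 FPKM in sham, 0.677 on day 1, 1.81 on day 3, 1.76 on day 7, 1.62 on day 14 and 3.11 on day 28. Sham and day 1 were close and the other libraries stood higher, with a log2 ratio of 1.87 on day 28, which was 1.21 with a pseudocount of 1 in place of 0.1. The log2 ratio was 1.12 on day 3 and 1.08 on day 7, and with a pseudocount of 1 it was 0.66 and 0.63. The Egr2 levels come from 1 transcript start only, so each is a lower bound on the gene's level. Both the sham value, used in every Egr2 ratio, and the day 1 value were below the minimum of 1 FPKM used for comparing genes.

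Arc (chromosome 15, 74669083 to 74672570, minus strand) had 17.6 FPKM in sham, 15.1 on day 1, 44.9 on day 3, 29.6 on day 7, 32.1 on day 14 and 52.0 on day 28. It was the second gene with its lowest value on day 1, and from day 1 to day 3 the level was 2.98-fold higher. Its log2 ratio to sham was -0.23 on day 1, 1.34 on day 3 and 1.55 on day 28. The day 3 value includes 0.666 FPKM from a locus on the opposite strand under the same identifier, listed on day 3 and in no other library, without which Arc had 44.2 FPKM. Arc was above Egr1 in FPKM on days 3, 14 and 28 and below it in sham and on days 1 and 7. This order rested on small differences in some libraries. Arc and Egr1 had 29.6 and 30.0 FPKM on day 7, and 32.1 and 30.1 on day 14.

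Dusp1 (chromosome 17, 26505590 to 26562128, minus strand) had 8.51 FPKM in sham, 14.5 on day 1, 9.39 on day 3, 9.86 on day 7, 9.96 on day 14 and 16.1 on day 28. Days 1 and 28 were the highest pair, as for Fos, and days 3 to 14 were near sham. Its largest log2 ratio to sham was 0.91, on day 28. A form retaining an intron (chromosome 17, 26507204 to 26507574) made up 5.13% of the retained and spliced forms in sham, 8.54% on day 1, 19.1% on day 3, 6.81% on day 14 and 2.15% on day 28, and was not listed on day 7. That form stayed below 2 FPKM throughout.

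Unless another pseudocount is named, log2 ratios throughout are log2((FPKM + 0.1)/(sham FPKM + 0.1)), a scale that understates the ratio of low genes. Folds given for single genes are plain ratios of FPKM. Genes that reached 1 FPKM in either library were compared, and a log2 ratio of 1 or more in size was counted. This is called past 2-fold below, although a low gene can exceed a plain fold of 2 and not be counted. On day 1 the median log2 ratio of the 8 genes was 0.60, and 2 of 7 compared (Fos and Fosb) were higher by that rule and 0 lower, where 5.11% of all genes compared were higher and 4.48% lower. On day 3 the median was 0.33, with 3 of 8 higher (Fos, Egr2 and Arc) and 0 lower, against 8.54% and 2.53% of all genes. Day 7 had a median of 0.68, with 2 of 8 higher (Fos and Egr2) and 0 lower, against 8.53% and 2.12%. Day 14 had a median of 0.84, with 0 of 8 higher and 0 lower, against 8.97% and 6.92%, its 8 ratios lying between 0.22 and 0.97. On day 28 the median was 1.20, with 5 of 8 higher (Fos, Fosb, Egr2, Arc and Nr4a1) and 0 lower, against 3.68% and 2.79%. The genes were chosen on these contrasts, so nothing is read from their counts against the background.

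The median over all genes was 0.01 on day 1, 0.03 on days 3, 7 and 28 and 0.10 on day 14. Day 28 had the smallest share of genes past 2-fold in the higher direction among the post-stroke libraries. The count of 0 on day 14 sits just under the threshold. Without a pseudocount Fosb was 2.02-fold and Egr2 2.09-fold above sham there. With a pseudocount of 0.01 it was 2 of 8, and after subtraction of the neuron marker median it was 4 of 8. The share of all genes was not taken under these settings, so nothing is read from these counts.

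**Figure D3:**
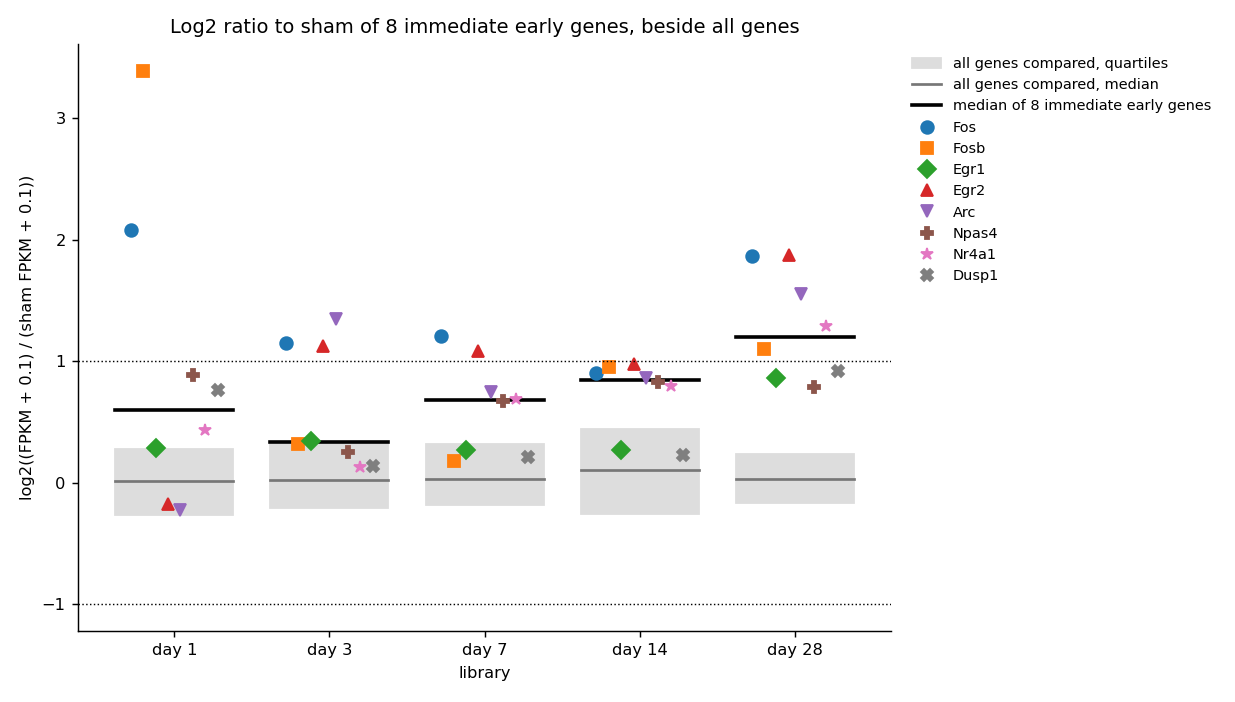
Log2 ratio to sham (vertical axis) of the 8 genes in each post-stroke library, with their median (black line), the median (grey line) and quartiles (grey box) of all genes compared, and dotted lines at a log2 ratio of 1 and -1. Fosb is at 3.39 on day 1, and on day 28 all 8 genes lie between 0.79 and 1.87, above the upper quartile of all genes (0.23).

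The relatives of these genes were described from lists of AP-1, Egr and Nr4a genes, other rapid primary response genes, delayed and effector genes, MAP kinase phosphatases and upstream regulators. Their counts stand beside the shares of all genes given above, 5.11% higher and 4.48% lower on day 1 and 3.68% and 2.79% on day 28. Of 18 other rapid primary genes with a value (of 24 listed), 11 were past 2-fold higher on day 1 and 0 lower, with a median log2 ratio of 1.18. On day 28 the count was 1 higher and 1 lower and the median 0.29. Ccn1, a secreted matrix protein, had 2.19 FPKM in sham and 14.3 on day 1. Gadd45b, a stress response protein, had 5.23 and 20.6, and Csrnp1, a nuclear factor, 2.19 and 8.82. On day 28 they had 3.35, 8.99 and 2.73 FPKM, all nearer to sham than to day 1. Sik1, a kinase that restrains CREB coactivators, had 0.878 FPKM in sham, 2.72 on day 1, 2.62 on day 3, 2.21 on day 7, 1.85 on day 14 and 3.10 on day 28, with log2 ratios from 0.99 to 1.71.

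Of the other AP-1 family genes, 8 of 10 had a value and 4 were listed in all libraries. On day 1, of 3 compared that were listed in both libraries, 2 were past 2-fold higher (Fosl2 and Mafk) and 0 lower, and on day 28 0 of 3 were past it in either direction. Fosl1, Atf3 and Maff were not listed in sham and had 1.22, 5.89 and 6.84 FPKM on day 1, and no ratio is given for them. Fosl2 had 3.04 FPKM in sham, 7.05 on day 1 and 4.43 on day 28. Mafk, a small Maf factor, had 2.47, 8.91 and 3.16. Batf3, a factor of dendritic cells and lymphocytes, was highest on day 14, with 1.44 FPKM against 0.401 in sham. Jdp2, a repressor of AP-1, stayed between 12.3 and 19.0 FPKM.

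The other Egr and Nr4a genes had 0 of 5 past 2-fold in either direction in each of the 5 libraries. Egr3 had 15.3 FPKM in sham, 22.0 on day 1, 10.9 on day 14 and 25.1 on day 28, and Nr4a3 3.23 in sham and 6.12 on day 28. Nr4a2 was below sham in all 5 libraries, with 10.7 FPKM in sham and from 7.09 to 8.64 after stroke. Nab2, a corepressor of Egr factors, had 9.52 FPKM in sham and 13.3 on day 28. Median log2 ratios of these 5 genes were -0.07 on day 1 and 0.48 on day 28.

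Delayed and effector genes had 3 of 19 compared past 2-fold higher on day 1 and, of those listed in both libraries, 0 of 18 on day 28, with medians of 0.48 and -0.04. Cebpd was not listed in sham and had 3.89 FPKM on day 28. Nptx2, a secreted protein that clusters AMPA receptors, had 16.0 FPKM in sham, 81.2 on day 1, 15.9 on day 3, 15.1 on day 7, 17.2 on day 14 and 12.8 on day 28, so that day 1 alone stood apart. Ptgs2, which makes prostaglandins, had 1.89 FPKM in sham and 7.26 on day 1, and Pim1, a kinase, 0.919 and 3.72. Scg2, a secretory granule protein, had 17.1 FPKM in sham and was highest on day 7, with 36.1.

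Among the other MAP kinase phosphatases, 3 of 9 compared were past 2-fold higher on day 1 (Dusp4, Dusp5 and Dusp16) and 1 on day 28. Dusp4 had 2.32 FPKM in sham, 5.65 on day 1 and 5.25 on day 28, and Dusp5 had 2.81, 8.16 and 5.01. Dusp10 had 1.23 FPKM in sham and 2.42 on day 1, and Dusp16 1.83 and 3.82.

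The upstream regulators, such as CREB, SRF cofactors and kinases, had medians near 0 (from -0.12 on day 1 to 0.09 on day 28), with 0 of 26 higher and 3 lower on day 1, 2 higher and 0 lower on days 3 and 7, 0 higher and 3 lower on day 14 and 0 past 2-fold on day 28. Of all genes compared, 8.54% were higher and 2.53% lower on day 3, 8.53% and 2.12% on day 7, and 8.97% and 6.92% on day 14. Creb1 had 5.69 FPKM in sham, 2.64 on day 1, 9.01 on day 3, 5.46 on day 7, 0.804 on day 14 and 5.08 on day 28. Mrtfb, an SRF cofactor, had 17.0 FPKM in sham and 0.607 on day 14, with from 16.2 to 19.0 in the other libraries. The day 14 library had the fewest listed events and low values of some long transcripts, as given below. Whether this bears on the day 14 values of Creb1 and Mrtfb was not tested. Rps6ka3, a kinase of CREB, had 8.57 FPKM in sham and 2.96 on day 1. Elk3, an ETS partner of SRF, was highest on day 3, with 3.66 FPKM against 1.18 in sham.

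**Figure D4:**
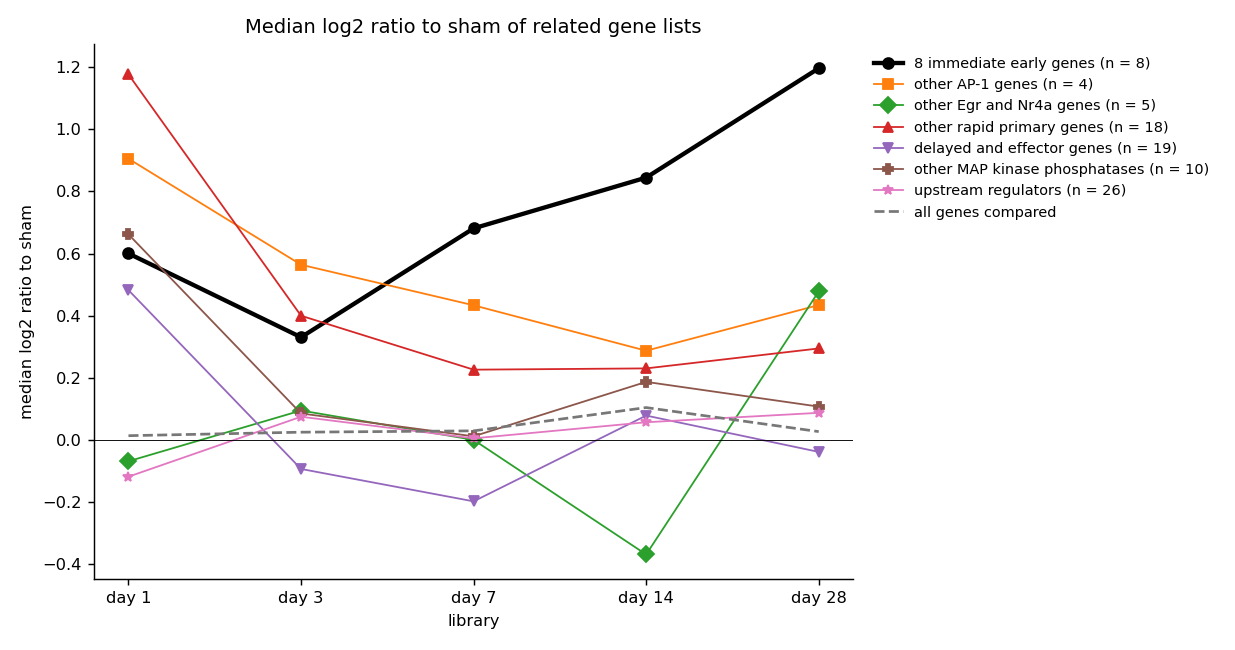
Median log2 ratio to sham (vertical axis) of the 8 immediate early genes (black) and of 6 related gene lists, with the number of genes in each median in the legend, and of all genes compared (dashed), by post-stroke library. Other rapid primary genes have their highest median on day 1 (1.18), and the 8 genes theirs on day 28 (1.20).

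The genes most like the group's median profile were sought among 11542 other genes by the root mean square difference of the 5 log2 ratios. Among the 10 closest were Gm9157, Capsl, Ddc, Tmem230, Pkp2, Slc15a4, Gm47076, Cish and Vipas39, at 0.13 to 0.20. These genes were picked for that closeness. Within the group of 8 the difference from the median profile ran from 0.13 (Nr4a1) to 1.27 (Fosb).

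Markers of the tissue were present as labelled. Neuron markers were listed for 11 of 13 genes, and Snap25 had 706 FPKM in sham. Genes from a list of striatum and hippocampus markers were also present in this tissue labelled as cortex. Of 10 such genes 8 had a value, and Ppp1r1b had 217 FPKM and Penk 119 in sham. Prox1, of the same list, was not listed in sham or on day 28. These values do not show which region the RNA came from. Their summed FPKM (7 genes listed in all libraries) was 412 in sham, 504 on day 1, 373 on day 3, 380 on day 7, 566 on day 14 and 544 on day 28. The part of this difference in the levels of the 8 genes was not tested.

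Summed neuron markers (10 genes listed in all libraries) were 1989 FPKM in sham, 1837 on day 1, 1567 on day 3, 1561 on day 7, 1514 on day 14 and 1771 on day 28. The sum was therefore below sham in all 5 post-stroke libraries. Single neuron markers lay on both sides of sham in every post-stroke library. The median log2 ratio of those listed in both libraries ran from -0.02 on day 1 to -0.30 on day 7. Summed astrocyte markers (8 of 8 genes) were 927 FPKM in sham, 1014 on day 1, 1603 on day 3, 1321 on day 7, 1255 on day 14 and 964 on day 28. Microglia and macrophage markers (6 of 9 genes listed in all libraries) had 73.1 FPKM in sham, 72.6 on day 1, 186 on day 3, 256 on day 7, 207 on day 14 and 80.8 on day 28. Gfap, an astrocyte filament gene within the astrocyte sum, had 85.8 FPKM in sham, 330 on day 1, 698 on day 3 and 150 on day 28. The rise of the astrocyte sum was mostly that of Gfap. The median log2 ratio of the 8 astrocyte markers was -0.13 on day 1, 0.33 on day 3 and -0.05 on day 14. The part of these cell types in the levels of the 8 genes was not tested.

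Oligodendrocyte markers (5 of 6 genes) summed to between 1548 FPKM (day 28) and 2177 (day 1), endothelial markers (3 of 6 genes) to between 6.33 (day 28) and 14.4 (day 3), and blood markers (4 of 5 genes) to between 160 (day 7) and 477 (day 3). No infiltrating leukocyte marker was listed in all 6 libraries. S100a8, a neutrophil gene, had 0.0729 FPKM in sham, 6.18 on day 1, 1.59 on day 3, 0.682 on day 7 and 3.84 on day 14 and was not listed on day 28, and S100a9 was listed on day 1 (10.1 FPKM) and day 14 (5.32 FPKM). Ly6c2, of the same list, was not listed in sham or on day 1. It had 1.89 FPKM on day 3, 0.911 on day 7, 3.56 on day 14 and 1.67 on day 28. Ccr2 and Cd3e had at most 0.199 and 0.131 FPKM in any library. The part of leukocytes in the day 1 levels of Fos, Fosb and Dusp1 was not tested.

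**Figure D5:**
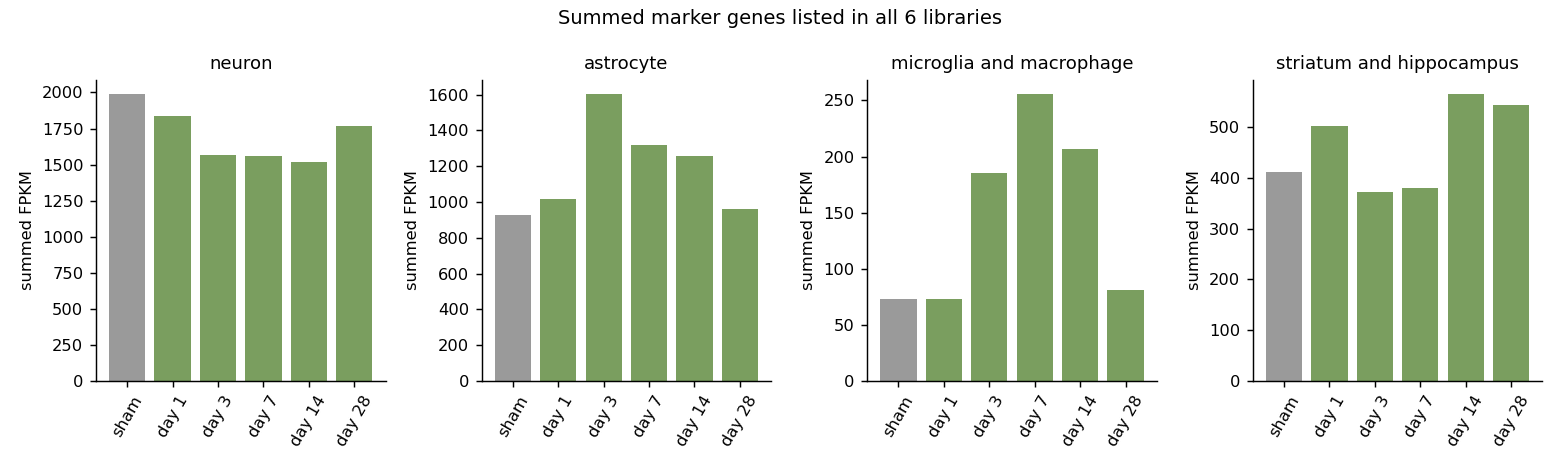
Summed FPKM (vertical axes, from 0) of marker genes listed in all 6 libraries, for neurons (10 genes), astrocytes (8), microglia and macrophages (6) and striatum and hippocampus (7), in sham (grey) and after stroke (green). On day 28 the glial sums are near sham (80.8 against 73.1 FPKM for microglia and macrophages), and the striatum and hippocampus sum is 544 against 412.

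The day 14 library stood apart in having the fewest listed events, 83501 against 92295 to 99187 in the others, and in low values of some long transcripts, for instance Map2 with 23.7 FPKM against 113 in sham. Removing each library's trend with transcript length left 39 of the 40 log2 ratios of the 8 genes with their sign, the exception being Dusp1 on day 14. The trend removed on day 14 was 0.27 for Fos, 0.23 for Dusp1, 0.18 for Nr4a1 and -0.12 for Egr1.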

How the data were processed

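Poly(A) RNA of 3 mice per group was sequenced by the authors, giving 1 library per group and 6 libraries. The deposited values are FPKM per event (transcript start, transcript end, exon skipping, intron retention and similar), on mm10. The submitters' processing notes name Trimmomatic 0.30, HISAT2 2.0.1 and HTSeq 0.6.1, and the tool that made the events is not given in the sources used here. Events at 0 are left out of the tables, so a gene without a value is called not listed. Depth is known only as a stated average of 33.6 M reads, so no interval or floor is given.

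A gene's value was the largest of its summed start FPKM, summed end FPKM and any single event. Genes with at least 1 FPKM in either library were compared by log2 ratio with a pseudocount of 0.1 and a threshold of 1 in size. With 1 library per group no test was run. The steps were tested on simulated data. Annotation was GENCODE M21, matched by 15411 of 15441 identifiers. The calculations used Python 3.11.15, numpy 2.4.6 and pandas 2.3.3.

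The genes and lists were chosen with earlier results of these data known. From each list at most 4 genes with the largest log2 ratio in size at any day were named, among those listed in all libraries with at least 1 FPKM in 1 of them. Exceptions, named after their values were seen, are Fosl1, Atf3, Maff, Cebpd, Ppp1r1b, Prox1, S100a8, S100a9, Ly6c2, Ccr2 and Cd3e. In the shares over all genes, a gene not listed in 1 library of a pair was taken as 0 there. Junb and Egr4 had no value, and the 10 closest genes were ranked by root mean square difference, of which 1 is not reported here. Alternatives covered the pseudocount, filter, threshold, gene value, scaling, transcript length (20 bins) and reference library.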

Additional observations from a re-analysis of the deposited data

Results flagged for a closer look

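Egr2 and Arc were the 2 of the 8 genes below sham on day 1 and above it in the 4 later libraries, while the other 6 were above sham throughout. Their log2 ratios to sham on day 1 were -0.18 for Egr2, which was below 1 FPKM in both libraries, and -0.23 for Arc. This difference between days was not tested, since each day is 1 library.

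On day 3 the Arc identifier also carried a start and an end on the opposite strand, each at 0.666 FPKM. Neither was listed in sham or in the other post-stroke libraries, and their source was not tested.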

How the results depend on the processing

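No paired analysis was possible because each group is 1 library of pooled RNA, and for the same reason no library could be left out. Median-ratio size factors, events inside the annotated span and transcript length correction moved no median by as much as 1.5-fold and no count by more than 1.5 times. With a pseudocount of 1 the genes past 2-fold higher were 1 on day 3 and 1 on day 7 (3 and 2 as reported), Fosb on day 1 was 2.66 and Egr2 on day 28 was 1.21, and with 0.01 they were 2 on day 14 (0 as reported). The end sum gave 1 on day 7. The start sum gave 1 lower on day 14, which is Npas4, whose start was not listed there. A 1.5-fold threshold gave 4 higher on day 1, 5 on day 7, 6 on day 14 and 8 on day 28, where 11.5%, 15.3%, 18.5% and 8.93% of all genes compared were higher. Subtracting the neuron marker median, chosen after seeing the data, gave 4 higher on day 14. With day 28 as the reference the medians were -0.36 on day 1, -0.73 on day 3, -0.68 on day 7 and -0.64 on day 14, with 1 higher and 2 lower on day 1, 0 higher and 1 lower on day 3 and 0 higher on day 7. Against it 26 of 32 single-gene ratios changed sign, among them those past 2-fold against sham of Fos (-0.72 and -0.66) and Egr2 (-0.75 and -0.79) on days 3 and 7 and of Arc on day 3 (-0.21). With the median of the 6 libraries as the reference the medians were -0.010 on day 7 and 0.032 on day 14, 1 gene was higher and 2 lower on day 1, and 0 were higher on days 3, 7 and 28. Of 40 single-gene ratios 14 changed sign, 1 of them past 2-fold against sham, Fos on day 3 (-0.029). These 2 settings change the reference itself. Without the filter on low values, 8.46% of all genes were higher on day 1 and 7.21% on day 28. Apart from the threshold and the filter, the share of all genes was not taken under these alternatives. Nothing is read from their counts.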
